A study of Mus musculus with 8 samples.

Results

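CC chemokines are small secreted proteins that draw leukocytes along a gradient by binding G protein-coupled receptors, and the name refers to a pair of adjacent cysteines near the start of the mature protein. Macrophages are a main source of them when Toll-like receptor 4 senses lipopolysaccharide (LPS), the outer membrane component of Gram-negative bacteria, and many of the genes respond to NF-kappaB. Different ligands call different cells, because Ccl2 and Ccl7 bind Ccr2, mouse Ccl6 and Ccl9 act through Ccr1, and Ccl22 binds Ccr4.

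The 8 CC chemokine genes described here, Ccl2, Ccl3, Ccl4, Ccl5, Ccl6, Ccl7, Ccl9 and Ccl22, were chosen by gene symbol from the 23143 genes of a count table and followed through all 8 libraries. The libraries came from RAW264.7 cells, a mouse macrophage line transformed with Abelson leukemia virus, so they describe a single transformed line and not primary macrophages. A culture was left untreated (0 min) and the others received 100 ng/ml LPS from E. coli serotype O111:B4 and were harvested every 15 min up to 90 min and again at 120 min. RNA was depleted of ribosomal RNA before sequencing, and the label for the RNA fraction reads cytoplasmic whereas the molecule label reads total RNA. Each time point was sequenced as 1 library. Differences over time therefore have no replicates behind them, and a test of a pair of libraries compares those libraries and not the conditions.

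Total counts ranged from 100250892 to 159077286 per library. Rn45s, a ribosomal RNA precursor, took 12.96% to 20.5% of the counts at 15, 45, 75 and 90 min and 8.18% to 9.11% at 0, 30, 60 and 120 min, so ratios of 90 min to 15 min, within the first set, are also given. Of 8 macrophage marker genes, 7 stood above 1 cpm (counts scaled to the library total) in every library, with a summed level of 5476 to 6689 cpm, and Mertk had at most 2 counts. The summed level of 6 T cell markers stayed between 0.719 and 1.34 cpm with Cd3g at 0, that of 5 B cell markers between 0.180 and 0.401 cpm with Pax5 at 0, and that of 4 granulocyte markers was at most 0.0486 cpm with Mcpt8 and Cpa3 at 0. For 6 fibroblast and epithelial markers it was at most 0.0153 cpm, with Col1a1, Col1a2, Epcam and Cdh1 at 0. In a bulk sample, more cells making an mRNA and more mRNA per cell cannot be told apart.

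Of the 8 genes, 7 were called higher at the end of the series and 1, Ccl6, was called at no time. A gene was called higher when its log2 ratio to the 0 min library exceeded 0.5 and the exact negative binomial test of both libraries gave an unadjusted p under 0.05. No member was called higher at 15 min, where 0.194% of all genes were called higher. The count was 2 at 30 min against 0.76% of all genes, 3 at 45 min against 2.51%, 4 at 60 min against 2.3%, 5 at 75 min against 3.15%, 7 at 90 min against 3.84% and 7 at 120 min against 5.17%. No member was called lower at any time, while the share of all genes called lower was 0.108%, 0.134%, 0.994%, 1.58%, 2.29%, 2.93% and 4.53% in order of time from 15 to 120 min. The median log2 ratio of the members, with a pseudocount of 1, was -0.27 in the 15 min library, 1.13 by 60 min and 4.04 by 120 min, and that of the 12166 genes whose normalized counts averaged 10 or more, a limit that all 8 members passed, was -0.01 at 120 min. Of those 12166 genes, 515 were called higher at 60 min and 1145 at 120 min. These are larger shares than those over all genes, which include many with few reads.

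Against the 0 min library, the genes entered the called set in an order. Ccl3 and Ccl4 were first called at 30 min, Ccl5 at 45 min, Ccl22 at 60 min, Ccl9 at 75 min, and Ccl2 and Ccl7 at 90 min. With scaling by total counts, Ccl5 was first called at 60 min, Ccl22 at 75 min, Ccl9 at 90 min and Ccl2 at 120 min. That scaling shifts all genes of a library by the same log2 amount, so the unchanged order of these 4 genes is no separate check. With Benjamini-Hochberg adjustment over all genes, each of these 4 genes and Ccl3 and Ccl4 lost its first call, and the members called higher numbered 0 at 30 min, 2 at 45 min, 3 at 60 min, 4 by 75 min, 6 by 90 min and 7 by 120 min. A call also needs enough reads, and Ccl7, with 25 reads at 30 min, had a log2 ratio of 1.12 there that was not called beside 1.06 for Ccl4 and 0.90 for Ccl3, which were. At 60 min Ccl7 stood at 1.41 without a call, above the called Ccl22 at 0.95. Ccl2 at 0.65 stood above Ccl9 at 0.40 in that library, with neither called. The order of first calls is therefore not an order of ratios. The order depends on the reference library as well. Against the 15 min library, which is also rich in Rn45s, Ccl2 (log2 ratio 0.77), Ccl3 and Ccl4 were called higher at 45 min. Ccl5 had the same log2 ratio (0.77) but was not called, with 23 and 33 reads against 406 and 583 for Ccl2. Ccl2 was thus called before Ccl5 there without a larger ratio. The 15 min library was the lowest of Ccl2, and against 0 min its ratio at 45 min was 1.07 (0.955 to 1.19). The 7 called genes were all classed as having a single maximum, at 120 min, with no called minimum before it. A late maximum of this kind, first reached at or after 60 min, was shown by 5.38% of all genes. Since 120 min was the last sample, a later peak was not measured. Against the 60 min library, the same 7 members were called higher at 120 min, beside 2.45% of all genes, and against the 15 min library they were called higher at 90 min, beside 3.15%.

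**Figure D1:**
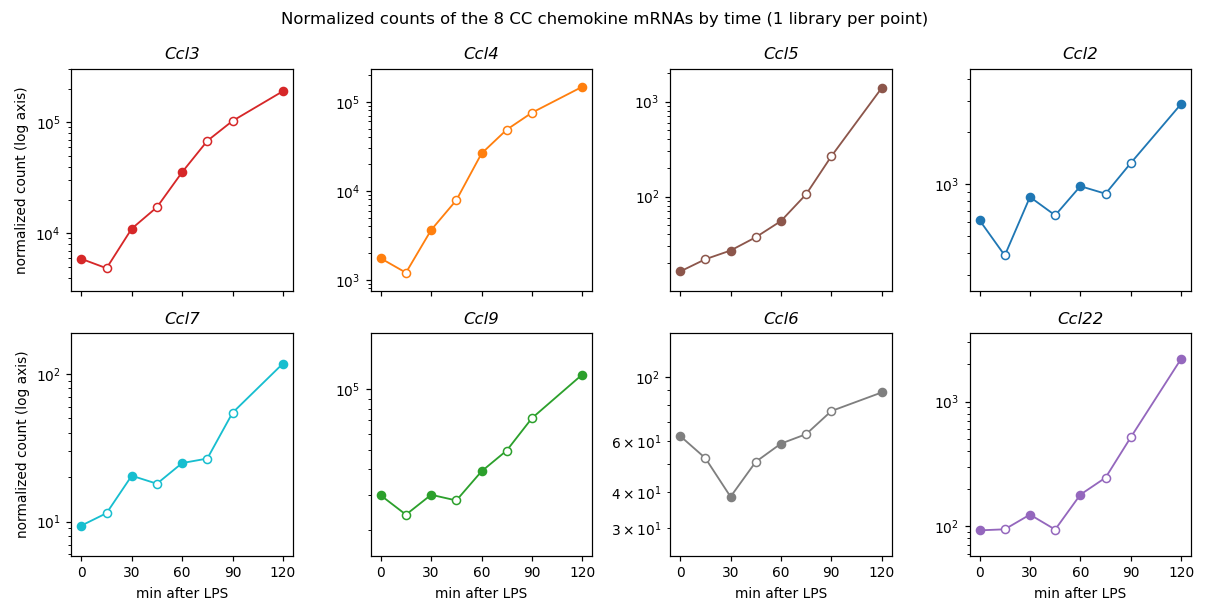
Each panel plots the normalized count (vertical, log axis) of 1 CC chemokine mRNA against min after LPS (horizontal), 1 library per point, with open points for the libraries at 15, 45, 75 and 90 min that hold more Rn45s. All panels but that of Ccl6 end at their highest value well above 0 min, and Ccl2, Ccl3, Ccl4 and Ccl9 start with a lower value at 15 min.

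Ccl3 and Ccl4, also known as MIP-1 alpha and MIP-1 beta, recruit monocytes and lymphocytes, and Ccl3 binds Ccr1. Normalized counts, which are counts divided by a size factor for each library, were 5889, 4849, 11019, 17198, 35580.0, 68124, 102987 and 190811 for Ccl3 in order of time from 0 to 120 min. From 30 min on, every library was higher than the one before it. Relative to 0 min the ratio was 1.87 (95% counting interval 1.82 to 1.93) at 30 min, 6.04 (5.89 to 6.20) at 60 min and 32.4 (31.6 to 33.2) at 120 min. These intervals and the others below cover counting error only.

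Ccl4 had normalized counts of 1744, 1204, 3630.0, 7845, 26218, 48562, 75267 and 147215 at the same times. It began lower than Ccl3 and climbed more steeply, and between 30 and 60 min its ratio was 7.22 (7.0 to 7.46) against 3.23 (3.17 to 3.29) for Ccl3. At 120 min the log2 ratio of Ccl3 was below that of Ccl4 by a difference of -1.38 (counting interval -1.45 to -1.31). In the late course they lay closer together, and the ratio of 120 min to 60 min was 5.36 (5.31 to 5.42) for Ccl3 and 5.61 (5.55 to 5.68) for Ccl4. Within the libraries rich in Rn45s, the ratio of 90 min to 15 min was 21.2 (20.6 to 21.9) for Ccl3 and 62.5 (59.1 to 66.2) for Ccl4.

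Ccl5, or RANTES, attracts T cells, monocytes and eosinophils, and it followed another course. Its normalized counts were 16.3, 21.9, 27.0, 37.3, 55.2, 106, 265 and 1391, from 19 reads at 0 min to 1716 reads at 120 min. Each normalized count was higher than the one before it, but the counting intervals of early steps span 1. The ratio was 1.35 (0.701 to 2.61) from 0 to 15 min and 1.48 (0.956 to 2.33) from 45 to 60 min. From 30 to 45 min it was 1.38 (0.825 to 2.31), with 33 reads in both libraries. Most of the change came after 60 min, when 3.97% of the 120 min level had been reached. The ratio to 0 min was 3.40 (2.00 to 6.01) at 60 min and 85.6 (54.6 to 142.5) at 120 min. The step from 60 to 120 min was 25.2-fold (19.6 to 33.0), the largest of the 8 genes, and the ratio of 90 min to 15 min was 12.1 (7.86 to 19.5). At 120 min the log2 ratios of Ccl4 and Ccl5 differed by -0.02 (-0.68 to 0.64), an interval that spans 0, whereas at 60 min that of Ccl4 was larger by 2.15 (1.40 to 2.89).

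**Figure D2:**
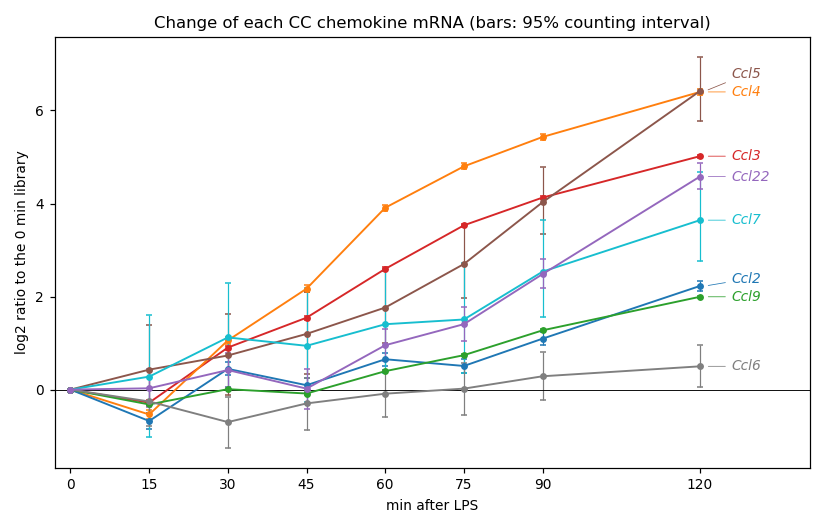
The log2 ratio of each library to the 0 min library (vertical) is plotted against min after LPS (horizontal) for the 8 mRNAs, with bars for the 95% counting interval. Ccl4 stands above the rest from 45 to 90 min and Ccl5 meets it at 120 min, while Ccl6 stays between -0.70 and 0.50.

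Ccl22, or MDC, binds Ccr4 and attracts regulatory and type 2 helper T cells, and it lies apart from the others on chromosome 8. Its normalized counts were 92.4, 94.2, 124, 93.7, 179, 245, 517 and 2211. The libraries at 0, 15 and 45 min lay close together, and each later library was higher than the one before it. The ratio to 0 min was 1.94 (1.53 to 2.47) at 60 min and 23.9 (19.7 to 29.3) at 120 min, with 8.09% of the 120 min level reached at 60 min. The step from 60 to 120 min was 12.4-fold (10.7 to 14.3), second to that of Ccl5, and the ratio of 90 min to 15 min was 5.49 (4.39 to 6.90). Over the 8 libraries the log2 normalized counts of Ccl5 and Ccl22 had a Pearson r of 0.985, a description of points that share their libraries. Such a value was not particular to this pair, with 0.996 for Ccl3 and Ccl4 and 0.983 for Ccl9 and Ccl22. The lowest r between called members was 0.857, for Ccl4 and Ccl22.

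**Figure D3:**
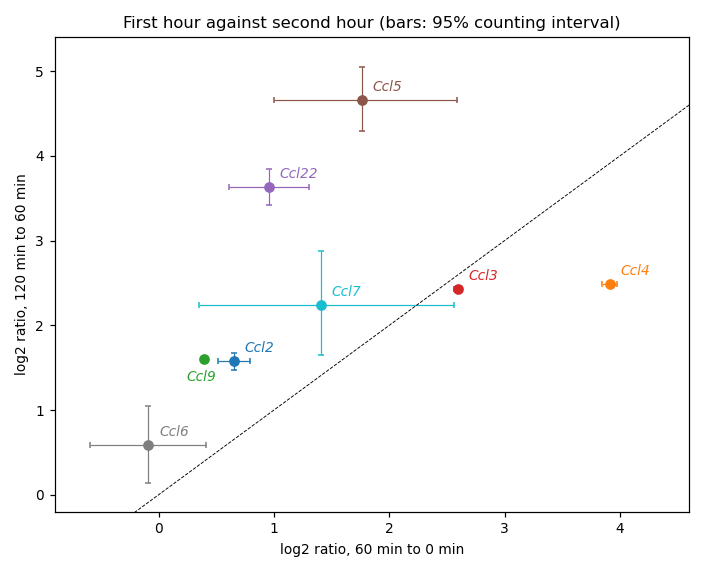
The log2 ratio of 120 min to 60 min (vertical) is plotted against that of 60 min to 0 min (horizontal) for each mRNA, with bars for the 95% counting interval and a dashed line where both are equal. Ccl4 and Ccl3 lie below the line, the interval of Ccl7 on the horizontal axis reaches it, and Ccl5 and Ccl22 lie farthest above it.

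Ccl2 and Ccl7, also called MCP-1 and MCP-3, bring monocytes out of the bone marrow and into tissue through Ccr2. Ccl2 had normalized counts of 617, 386, 840.2, 658, 969.6, 877, 1318 and 2889. The course was uneven, with the libraries at 15, 45 and 75 min each below the library before them. The ratio to 0 min was 1.57 (1.43 to 1.73) at 60 min, which was not called, then 2.14 (1.94 to 2.35) at 90 min and 4.68 (4.32 to 5.08) at 120 min. Among the libraries at 0, 30, 60 and 120 min alone, every value was higher than the one before it, and the ratio of 90 min to 15 min was 3.41 (3.04 to 3.84).

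Ccl7 was the scarcest of the called genes, with 11 reads at 0 min and 145 at 120 min. Its normalized counts were 9.41, 11.4, 20.5, 18.1, 24.9, 26.8, 54.6 and 118. The values from 30 to 75 min lay between 18.1 and 26.8. Poisson intervals were taken on counts scaled to the library total, and those from 30 to 75 min overlapped. On that scale the interval at 90 min overlapped those at 60 and 75 min but lay above those of the libraries before 60 min. The interval at 120 min overlapped no other. The 90 min library was also called higher than that at 0 min, at 5.80-fold (2.94 to 12.5). The ratio to 0 min was 2.65 (1.28 to 5.90) at 60 min, not called at this depth, and 12.5 (6.78 to 25.6) at 120 min, and that of 90 min to 15 min was 4.78 (2.48 to 9.96). Ccl2 and Ccl7 are neighbours on chromosome 11, 8258 bases apart, and at 120 min the log2 ratio of Ccl2 was below that of Ccl7 by a difference of -1.41 (-2.31 to -0.52).

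Ccl9 and Ccl6, known as MIP-1 gamma and C10, are rodent chemokines of the Ccr1 group, and their levels were far apart. Ccl9 had normalized counts of 29719.7, 23821, 29918, 28031, 39118, 49648, 71885 and 118503. It was the most abundant of the 8 mRNAs in untreated cells and did not leave the range between 23821 and 29918 in the first 45 min. The ratio to 0 min was 1.32 (1.3 to 1.33) at 60 min, not called, and 3.99 (3.94 to 4.03) at 120 min, and that of 90 min to 15 min was 3.02 (2.97 to 3.06). On the Ccl9 transcript, 25 stretches of 58 bases are also found in another gene and 23 on the opposite strand of one, so reads from there are uncertain. The transcripts of the other 7 genes hold none.

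Ccl6 had normalized counts of 62.5, 52.3, 38.5, 50.8, 58.8, 63.4, 76.2 and 88.3. Its lowest library was at 30 min, with 47 reads, and its highest at 120 min, with 109. The ratio to 0 min was 0.616 (0.418 to 0.901) at 30 min and 1.41 (1.04 to 1.93) at 120 min, and that of 90 min to 15 min was 1.46 (0.993 to 2.14). The counting intervals at 30 and 120 min leave out 1, but neither difference passed the test, which also counts the spread between libraries. At 120 min the log2 ratio of Ccl6 was below that of its neighbour Ccl9 by a difference of -1.50 (-1.92 to -1.07).

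The 15 min library stood below the 0 min library for several abundant members, although none was called with all 8 libraries in use. The ratio was 0.626 (0.553 to 0.708) for Ccl2, 0.690 (0.643 to 0.741) for Ccl4, 0.802 (0.789 to 0.815) for Ccl9 and 0.823 (0.794 to 0.854) for Ccl3. Of the 10492 genes whose normalized counts averaged 100 or more, 1.88% had a ratio at 15 min as low as that of Ccl3 or lower, a comparison chosen after the values were seen. The sign stayed the same under every scaling tried, with log2 ratios at 15 min between -0.74 and -0.54 for Ccl2 and between -0.35 and -0.14 for Ccl3. The 15 min library also held more Rn45s than the 0 min library, 12.96% against 8.59%, and the part of that difference in these values was not tested. The 1.88% covers transcripts of every length. For genes of like transcript length, the median log2 ratio at 15 min was -0.14 at the length of Ccl2 and of Ccl3. It was -0.15 at that of Ccl4 and 0.03 at that of Ccl9. Subtracting it left log2 ratios of -0.54 for Ccl2, -0.14 for Ccl3, -0.38 for Ccl4 and -0.35 for Ccl9.

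Levels between genes were compared as rpkm, reads scaled to the unique 58-base positions of the transcript and to the total count of the library. At 0 min the order was Ccl9 with 90.7 rpkm (95% Poisson interval 89.7 to 91.6), Ccl3 with 74.1 (72.4 to 75.9), Ccl4 with 25.8 (24.7 to 26.9) and Ccl2 with 7.28 (6.76 to 7.83), each apart from the next. Ccl6 at 0.403 rpkm, Ccl22 at 0.382, Ccl5 at 0.305 and Ccl7 at 0.113 followed, and the intervals of neighbours among these 4 overlapped. At 120 min the order was Ccl3 with 2087 rpkm (2079 to 2096), Ccl4 with 1894 (1885 to 1902), Ccl9 with 314 (313 to 316), Ccl2 with 29.6 (28.7 to 30.6), Ccl5 with 22.7 (21.6 to 23.8), Ccl22 with 7.94 (7.65 to 8.25), Ccl7 with 1.23 (1.03 to 1.44) and Ccl6 with 0.495 (0.407 to 0.598). No neighbours overlapped in that library. Ccl5 moved from below Ccl6 to just under Ccl2, and Ccl7 passed Ccl6.

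The make-up of the 8 mRNAs changed with their sum. Ccl9 held 45.6% of their summed rpkm in untreated cells, 12.3% after 60 min and 7.21% after 120 min. Ccl3 went from 37.2% to 46.2% and 47.9%, and Ccl4 from 13.0% to 40% and 43.5%, so both passed Ccl9, Ccl3 at 30 min and Ccl4 at 45 min. The sum was 199 rpkm in untreated cells, 150.2 at 15 min, 907 by 60 min and 4357 by 120 min, 21.9 times the untreated level. As a share of all counts the 8 genes went from 0.0340% to 0.359%.

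**Figure D4:**
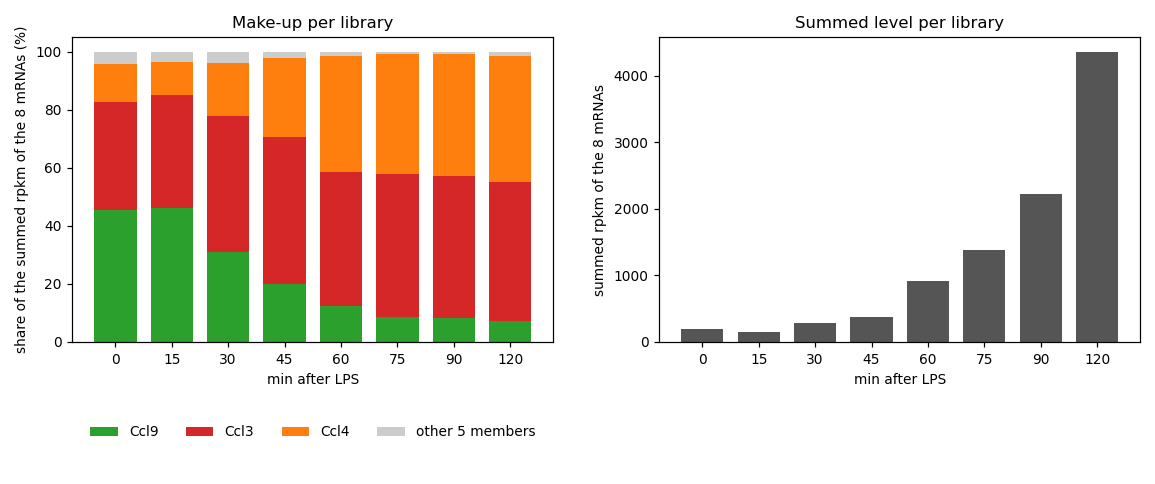
The left panel stacks the share (%) of the summed rpkm of the 8 mRNAs held by Ccl9, Ccl3, Ccl4 and the other 5 in each library, and the right panel gives that summed rpkm. Ccl9 shrinks from 45.6% to 7.21% of the bar between 0 and 120 min while the sum grows from 199 to 4357 rpkm.

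In GRCm38, the mouse build of the annotation, 7 of the genes lie on chromosome 11 in 2 groups. Ccl2 (82035571 to 82037453, plus strand) and Ccl7 (82045712 to 82047525, plus strand) form the first. The second holds Ccl5 (83525778 to 83530518, minus strand), Ccl9 (83572919 to 83578636, minus), Ccl6 (83587882 to 83593087, minus), Ccl3 (83647844 to 83649355, minus) and Ccl4 (83662584 to 83664683, plus). Ccl6, the gene that was not called, therefore lies between Ccl9, 9245 bases away, and Ccl3, 54756 bases away, which were both called. Ccl22 lies on chromosome 8 (94745590 to 94751699, plus strand). The RefSeq span of Ccl4 starts at 83648624, inside Ccl3 on the opposite strand, so without knowledge of the strand setting of the counting some reads of these 2 genes could not be told apart, but the Ccl4 transcript matched here shares no 58-base stretch with Ccl3 on either strand.

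The pentamer ATTTA, the core of AU-rich elements that many short-lived cytokine mRNAs carry in the 3′UTR, was counted on the sense strand of each 3′UTR, overlapping matches included. It was found 5 times in the 409 bases of Ccl3, 2 times in the 302 bases of Ccl4, 4 times in the 943 bases of Ccl6, 2 times in the 435 bases of Ccl7, 5 times in the 2465 bases of Ccl9, 2 times in the 1813 bases of Ccl22 and 1 time in the 275 bases of Ccl2. The 199 bases of Ccl5 held none. Per kb this came to 12.2 in Ccl3, 6.62 in Ccl4, 4.6 in Ccl7, 4.24 in Ccl6, 3.64 in Ccl2, 2.03 in Ccl9 and 1.1 in Ccl22, beside a median of 1.09 over the 19066 genes with an annotated 3′UTR, of which 62.2% held at least 1. The windows of 30 bases below have the pentamers in capitals. They are shown because they set Ccl3, among the first called genes, beside Ccl22, first called at 60 min, and the uncalled Ccl6. They lie at chr11:83648075-83648104 (minus strand), chr8:94750656-94750685 (plus strand) and chr11:83588723-83588752 (minus).
Ccl3: ttgaaattttATTTAATTTAatcctattgg
Ccl22: tgtgaaaccctaaATTTAccaagaatcaac
Ccl6: ttatagatATTTAaagcATTTAtccttctg
Pentamers stood in the uncalled Ccl6 and in every called gene but Ccl5, at differing densities per kb. Their part in these courses was not tested. A match is a description of the letters and not of a working element.

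Promoters in the RefSeq table for GRCm38.p6, from 250 bases before to 50 bases after the start, were given for 4 of the genes, Ccl3, Ccl6, Ccl9 and Ccl22. The kappaB motif, read on both strands, matched that of Ccl9, 35 bases before the start and on the strand opposite to the gene, and the other 3 held no match. It was found in 4.51% of all 32851 promoters. The match, in capitals, is shown as read along the gene at chr11:83578652-83578681 (minus strand).
Ccl9: tttgaactttGGAAAGCCCCaagtcacctt
Nothing about the factor follows from a match or from its absence in this window.

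Of 12 other CC ligands in the table, 8 had at least 1 read and 1, Ccl20, was called higher. It was called at 30 min, where 0.76% of all genes were, and from 60 min (2.3%) to 120 min (5.17%). The call at 30 min rested on 8 reads. Ccl20, the ligand of Ccr6, had no read at 0 min, 12 at 60 min and 85 at 120 min, where it was at least 26.8-fold higher than a floor of 3 reads per library allows at 0 min. Ccl25 was steadily present with 469 reads at 0 min and 479 at 120 min, and Ccl17, the other ligand of Ccr4, had 6 reads, all at 120 min.

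Among 15 genes for CC receptors and related receptors, 14 had at least 1 read, and 1 was called higher at 60 min, 3 at 90 min and 2 at 120 min, beside 2.3%, 3.84% and 5.17% of all genes. Ccrl2, an atypical receptor that binds chemerin, was called at every time from 15 min. Its normalized counts were 42.8, 109, 698, 1142, 1411, 1356, 1433 and 1373, so it was called earlier than any of the 8 chemokines and stayed between 1356 and 1433 from 60 min on. Its ratio to 0 min was 2.56 (1.82 to 3.64) at 15 min, 33.0 (24.9 to 44.6) at 60 min and 32.1 (24.2 to 43.4) at 120 min.

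Of Ccr1, Ccr2 and Ccr4, the receptors named above, Ccr1 alone was called. Ccr2, the receptor of Ccl2 and Ccl7, had between 593 and 987 normalized counts and was not called at any time. Ccr1 was called at 75 min, at 2.10-fold (1.41 to 3.15), and at 90 min, at 2.21-fold (1.51 to 3.27), but not at 120 min. Both libraries belong to the set rich in Rn45s, and against the 15 min library of that set Ccr1 was called as well, at 2.47-fold (1.61 to 3.84) and 2.59-fold (1.71 to 3.99), whereas at 60 and 120 min against 0 min it was not. Ccr4, the receptor of Ccl22, stayed at or under 17 reads. Ccr9, the receptor of Ccl25, had 4 reads at 0 min and 47 at 120 min and was called at 90 and 120 min, and its libraries from 15 to 75 min held fewer than 5 reads.

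**Figure D5:**
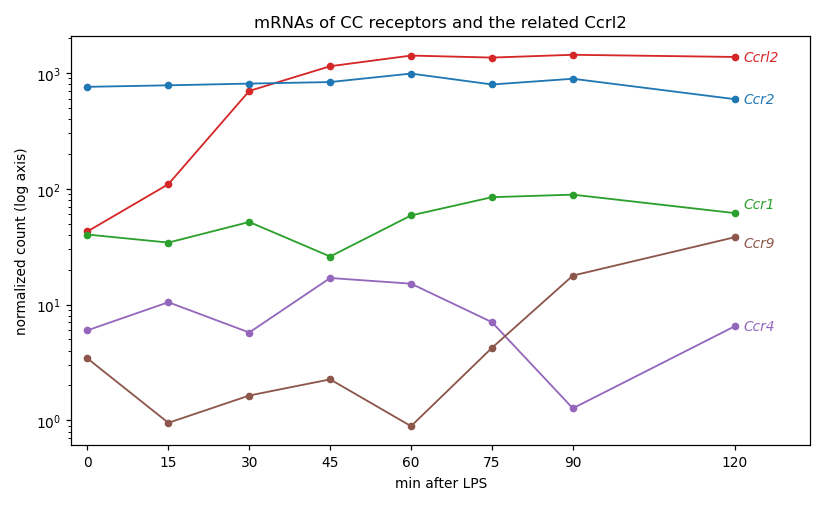
Normalized counts (vertical, log axis) of 5 receptor mRNAs are plotted against min after LPS (horizontal), 1 library per point. Ccrl2 goes from 42.8 to 1411 by 60 min and then stays level, Ccr2 stays between 593 and 987, and the other 3 stay under 100 counts.

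The genes whose courses were most like those of the 7 called members were found by Pearson's r of log2 normalized counts over the 8 libraries, among 10488 other genes with a mean of at least 100. Cd14, the LPS co-receptor, was closest to both Ccl3 (r of 0.998) and Ccl4 (0.999), although its log2 ratio at 120 min was 1.87 against 5.02 and 6.4. Bcl2a1b and Bcl2a1d, near-identical anti-apoptotic genes whose shared reads would have been dropped, so that their counts are uncertain, were closest to Ccl9 (0.999 and 0.998) with log2 ratios of 2.01 and 2.23. Gramd1b was closest to Ccl5 (0.999) and Sfpi1, which encodes the macrophage transcription factor PU.1, to Ccl22 (0.995), with log2 ratios of 1.35 and 0.65. Slc30a6 (0.987) was closest to Ccl2 and Armcx5 (0.993) to Ccl7, with log2 ratios of 0.25 and 0.70 against 2.23 and 3.64. With 8 shared libraries and so many candidates, these values describe likeness of shape and not of size.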

How the data were processed

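RNA-seq was run on 8 RAW264.7 cultures, untreated or given LPS, with a single library for each. The table deposited by the authors holds raw counts for 23143 gene symbols. Per the paper's methods, Bowtie was used to place 58-base reads on mm10 RefSeq transcripts with at most 2 mismatches, and reads matching several symbols were dropped. The submitters' processing notes name CASAVA 1.8.2 and DESeq 1.10.1. The library kit marks strand, and the strand setting of the counting is not given in the sources used here.

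From the counts, median-of-ratios size factors (0.710 to 1.23), a blind dispersion of 0.0287 + 0.853/mean over the 8 libraries and exact negative binomial tests of pairs of libraries were computed over all genes in Python 3.11.15 (numpy 2.4.6, scipy 1.17.1), after the DESeq settings of the paper. Genes were called at a log2 ratio beyond 0.5 and an unadjusted p under 0.05. A quasi-likelihood test needs replicates and could not be fitted. Tested on simulated data for 120 min against 0 min over 23143 genes, all 100 genes raised and all 100 genes lowered 4-fold were found, and 20 of 10294 unchanged genes were called. These genes all had a mean of at least 100, and the simulated dispersion was constant and below the fitted 0.0287. The simulation therefore checks the computation and does not give the power or error rate of the calls made here. Scarcer genes such as Ccl6 (mean 61.3) and Ccl7 (35.4) lay outside its range. Ratios carry an exact conditional binomial 95% interval, and differences of log2 ratios a 95% normal interval on the counting error. Rpkm used unique 58-base stretches of GENCODE vM21 transcripts. Alternatives used edgeR 4.0.16 and DESeq2 1.42.0. The genes named are the 8 members, the called genes of the ligand and receptor lists with the receptors of the members, and the genes most like each called member. Members and lists were chosen with earlier results of these data known. A receptor and a sequence window are not reported here.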

Additional observations from a re-analysis of the deposited data

How the results depend on the processing

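No paired analysis was possible because each time point has 1 library and the labels carry no replicate numbers. Of 60 recomputed counts of members called higher, leaving out 15 min where none was called, 58 stayed within 1.5 times the main count. The exceptions concerned the 2 members called higher at 30 min, of which 0 remained with Benjamini-Hochberg adjustment over all genes and 1 with a log2 limit of 1. The number with a late maximum was 7 without any of the libraries at 15 to 90 min and 6 without the 120 min library, where Ccl2 left the group. In that setting Ccl2 had a called minimum before 60 min, followed by a maximum. Of 584 recomputed log2 ratios, 19 lost their call and 3 gained one, and 11 that were not called changed sign. Calls lost under scaling by total counts were those of Ccl5 at 45 min (log2 ratio 1.01), Ccl22 at 60 min (0.86), Ccl9 at 75 min (0.41) and Ccl2 at 90 min (0.84). Subtracting a trend with transcript length, an alternative chosen after seeing the data, called Ccl2 at 60 min (0.75) and Ccl7 at 60 and 75 min (1.5 and 1.65). At 60 min in place of 120 min, the difference in log2 ratio of Ccl3 minus Ccl5 was 0.83 and that of Ccl7 minus Ccl22 was 0.45, against -1.40 and -0.94 at 120 min, but the interval of the latter at 60 min (-0.61 to 1.51) spans 0. Benjamini-Hochberg adjustment ended the call of Ccl3 and Ccl4 at 30 min, Ccl5 at 45 min, Ccl22 at 60 min, Ccl9 at 75 min and Ccl2 at 90 min. Of the recomputed rpkm values, 16 stayed within their counting interval and 16 moved beyond it. Depth limits Ccl5 and Ccl7 most, with 19 and 11 reads at 0 min.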
